A study of Nicotiana tabacum with 6 samples.

Results

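Plant proteinase inhibitors are small proteins that block protein-digesting enzymes, and 81 of the 69500 tobacco gene models in the deposited tables are described as such. A model was counted as a member when its description named a proteinase inhibitor family by number, a Kunitz inhibitor or a cystatin. Models described with the I9 propeptide, as subtilisin-type or papain-type proteases, or as lipid transfer proteins were left out by the same rule, and 0 were lipid transfer proteins. The rule removed 172 of 253 matching models, of which 114 carried the I9 propeptide of subtilisin-type proteases and 58 the catalytic domain of papain-type proteases. The rule reads the descriptions and uses no expression value.

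All 6 RNA-seq libraries came from young leaves of tobacco seedlings (Nicotiana tabacum, variety NC82), held at 4 °C for 24 h. There were 3 libraries of plants overexpressing the gene NtPhyA and 3 of wild-type plants, so every library is chilled and none measures the response to cold. The labels do not name the promoter of the transgene, the number of transgenic lines or whether a replicate is 1 plant, so p-values reflect only how these libraries vary, and that variation may be technical. The values are a normalized abundance per model and library, and the sources used here do not say whether the unit is TPM or FPKM. Levels set between models assume that it is per transcript length. The library sums ran from 440137 (overexpression replicate 3) to 568208 (wild-type replicate 3), and between 31369 and 33469 models per library were above 0. The leaf label was checked against chlorophyll a/b-binding proteins, which made up 0.295% to 1.92% of the summed abundance, and the Rubisco small chain, at 1.15% to 6.17%.

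In plants, proteinase inhibitors act in seeds and storage organs, in the control of the plant's own proteases and in defence. In leaves of the nightshade family, potato inhibitors I and II are classic wound-induced proteins that reach the gut of chewing insects and slow the digestion of leaf protein, and jasmonate is the hormone that carries the wound signal to their genes. Kunitz inhibitors (family I3), potato inhibitor I (family I13) and potato inhibitor II (family I20, Pin2) mainly block serine proteases such as trypsin, chymotrypsin or subtilisin. Cystatins (family I25) block papain-like cysteine proteases.

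The 81 members fell into 28 cystatins, 26 Kunitz inhibitors, 18 potato inhibitor I models, 8 potato inhibitor II models and 1 model of family I29. The descriptions went against the name of the group in a few cases. The I29 model, Nitab4.5_0000681g0250, is described by the propeptide of cathepsin-type proteases alone, which in a whole protease keeps the enzyme inactive. A further 5 members carry an unrelated domain besides the inhibitor family, namely 2 cystatins with an RNA recognition motif, 2 potato inhibitor I models with asparaginase and 1 Kunitz model with pentatricopeptide repeats. The remaining 75 are described as inhibitors only. Of the 5 models with an unrelated domain, 1 was abundant enough to be tested, at a mean of 1.32.

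Most inhibitor models were listed at or near 0 in these leaves. Of the 81, 25 (30.9%) were listed at 0 in all 6 libraries, against 37.4% of all models. A further 30 were above 0 in some library but had a mean below 1, from 0.01 to 0.87, with no single value above 5.22. That highest value belonged to the I29 model, which was at 5.22 in overexpression replicate 2 and listed at 0 in the other libraries. In all, 26 models (32.1%) averaged at least 1 across the libraries and entered the test, against 25.8% of all models. By class these were 8 of 28 cystatins, 7 of 26 Kunitz inhibitors, 7 of 18 potato inhibitor I models and 4 of 8 potato inhibitor II models. Among the 26, 14 had a mean of at least 10 and 7 a mean of at least 100, and 2 were listed at 0 in 1 library.

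A few models carried nearly all of the inhibitor transcript. The most abundant accounted for 37.6% of the summed inhibitor abundance, the top 3 for 65.3%, the top 5 for 81.1% and the top 10 for 96.3%. One model dominated each of the 3 classes that target serine proteases, with 95.5% of the potato inhibitor II sum, 87.3% of the potato inhibitor I sum and 81.2% of the Kunitz sum. Cystatin abundance was spread more evenly, and the top cystatin held 41.7% of its class.

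Potato inhibitor II and cystatins had the largest class sums, at 1293 ± 707 and 1199 ± 576 in wild-type leaves (SD, n = 3). The corresponding sums in overexpression leaves were 986 ± 230 and 950.5 ± 178 (SD, n = 3). The potato inhibitor II sum rested on 1 model. Nitab4.5_0006133g0030, the 25th most abundant of all models, was at 865, 816 and 1962 in wild-type replicates 1, 2 and 3 and at 716, 1142 and 1029.7 in overexpression replicates 1, 2 and 3. Wild-type replicate 3 was the highest library, and the other two wild-type values lay inside the overexpression range. The log2 difference, overexpression minus wild type on the log2(abundance + 1) scale, was -0.24 ± 0.44 (SE; limma adjusted p = 0.999). Its 95% confidence interval ran from -1.26 to 0.78.

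The next potato inhibitor II model, Nitab4.5_0003324g0100, was much less abundant and differed more between libraries. It was at 48.2, 36.6 and 141.8 in wild-type replicates 1, 2 and 3 and at 9.03, 17.5 and 40.1 in overexpression replicates 1, 2 and 3. Overexpression replicate 3 lay above wild-type replicate 2, so the groups overlapped. Its log2 difference of -1.70 ± 0.66 (SE) had the smallest unadjusted limma p of the 26 members, 0.0343, and did not pass the adjusted threshold (limma adjusted p = 0.999). Leaving out 1 library at a time gave differences from -2.24 to -1.13.

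Another potato inhibitor II model, Nitab4.5_0014015g0010, was the only tested member whose groups did not overlap. It was at 2.19, 1.23 and 1.21 in wild-type replicates 1, 2 and 3 and at 0.52, 0.46 and 0.40 in overexpression replicates 1, 2 and 3. All overexpression values were below all wild-type values, at levels close to the minimum mean of 1, where its mean was 1.00. The log2 difference was -0.78 ± 0.31 (SE; limma adjusted p = 0.999) and stayed between -0.81 and -0.75 when any 1 overexpression library was left out. Without any 1 wild-type library its mean fell below 1 and it was not tested. Groups did not overlap in this direction in 3.86% of all tested models, so 1 of 26 members is near the background.

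**Figure D1:**
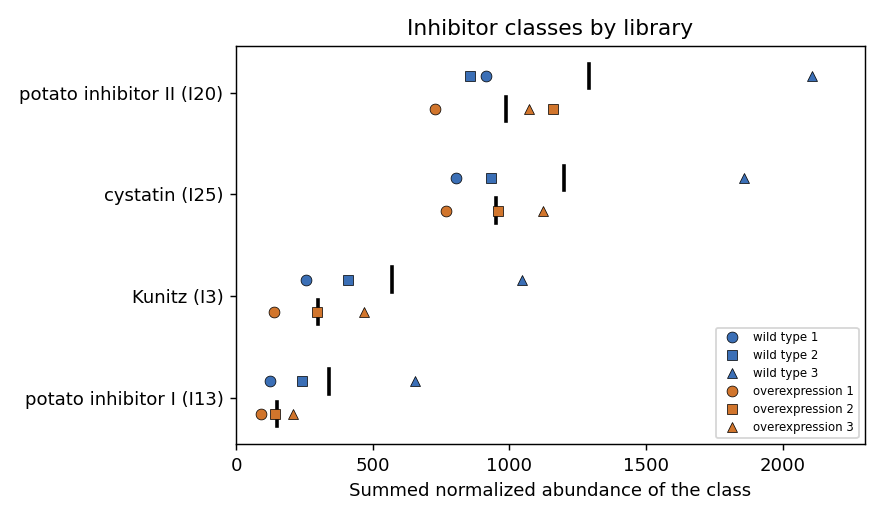
Summed normalized abundance (horizontal axis) of the 4 inhibitor classes in each library. Symbols are libraries by replicate number, blue for wild type and orange for overexpression, and black ticks are group means (n = 3). In each class wild-type replicate 3 is the highest point, and the other wild-type libraries lie within or near the overexpression range.

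Cystatins supplied 4 of the 7 inhibitor models with a mean of at least 100. Of the 10 cystatins whose description names the family's conserved site, 7 were tested and 1 was listed at 0 in all libraries. Of the 18 without it, 1 was tested and 10 were listed at 0 in all libraries. The most abundant, Nitab4.5_0000271g0310, was at 247, 395 and 873 in wild-type replicates 1, 2 and 3 and at 218, 395 and 563 in overexpression replicates 1, 2 and 3. The values of the 2 groups interleaved, and the log2 difference was -0.27 ± 0.55 (SE; limma adjusted p = 0.999).

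Other cystatins were much more even across libraries. Nitab4.5_0009278g0010 was at 226, 228 and 336 in wild type and at 219, 222 and 233 under overexpression, for replicates 1, 2 and 3. Nitab4.5_0000021g0820 was at 117, 116 and 144 in wild type and at 154, 133 and 119.8 under overexpression, and was highest in overexpression replicate 1. Their highest library was 1.53 and 1.32 times their lowest. The same ratio was 4.00 for Nitab4.5_0000271g0310, and over the 852 models of all kinds that averaged at least 100 its median was 2.34, with quartiles of 1.91 and 3.76. These 2 cystatins were thus among the steadier abundant transcripts, at the percentiles 7.51 and 2.46 of that ratio. Their log2 differences were -0.20 ± 0.28 and 0.11 ± 0.26 (SE; limma adjusted p = 0.999 for both).

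A pair of further cystatins, Nitab4.5_0000428g0040 and Nitab4.5_0002300g0010, had 1 high library each. The first was at 98.8, 102.5 and 266 in wild-type replicates 1, 2 and 3 and at 68.7, 100.9 and 115 in overexpression replicates 1, 2 and 3. The second was at 75.5, 77.7 and 199.6 in wild type and at 64.1, 85.8 and 82.1 under overexpression. In both, wild-type replicate 3 was higher than every other library, and their log2 differences were -0.58 ± 0.45 and -0.45 ± 0.42 (SE; limma adjusted p = 0.999 for both). The other 3 tested cystatins had means between 5.73 and 13.6, with log2 differences from -0.47 to -0.18.

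Kunitz inhibitors rested on 1 abundant model and a group of minor ones. Nitab4.5_0007090g0020 was at 209.5, 331 and 843 in wild-type replicates 1, 2 and 3 and at 112, 248 and 376 in overexpression replicates 1, 2 and 3. Its highest library was 7.50 times its lowest, at percentile 92.3 of the abundant models, and the groups overlapped. The log2 difference was -0.82 ± 0.63 (SE; limma adjusted p = 0.999), and its 95% confidence interval ran from -2.30 to 0.66.

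Among the Kunitz members, 4 share the identifier stem Nitab4.5_0003040, and their levels were very unequal. Nitab4.5_0003040g0030 was at 24.5, 37.6 and 95.4 in wild-type replicates 1, 2 and 3 and at 9.18, 24.5 and 33.1 in overexpression replicates 1, 2 and 3. Nitab4.5_0003040g0040 was at 5.80, 14.9 and 58.4 in wild type and at 3.29, 7.0 and 31.3 under overexpression. Nitab4.5_0003040g0010 had a mean of 0.86, and Nitab4.5_0003040g0020 was listed at 0 throughout. In both tested models wild-type replicate 3 was highest and overexpression replicate 1 lowest, with log2 differences of -1.14 ± 0.61 and -0.84 ± 0.96 (SE; limma adjusted p = 0.999 for both). In all, 10 such stems held more than 1 member, 22 members together, and each stem held members of 1 class only. Tobacco carries the genomes of its parent species, so near-identical copies are common, and the split of reads among such copies is uncertain. No sequences were compared, so whether the members of a stem are near-identical was not checked.

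The Kunitz model Nitab4.5_0000782g0030 had the lowest log2 difference of all members. It was at 6.30, 11.0 and 37.9 in wild-type replicates 1, 2 and 3 and at 0.65, 1.70 and 17.3 in overexpression replicates 1, 2 and 3. Overexpression replicate 3 lay above 2 of the 3 wild-type libraries. The log2 difference was -1.80 ± 0.98 (SE; limma adjusted p = 0.999), and its 95% confidence interval ran from -4.09 to 0.50. At the other end, Nitab4.5_0000339g0150 was at 0.69, 1.24 and 0.95 in wild type and at 1.66, 1.61 and 0.67 under overexpression, with a log2 difference of 0.22 ± 0.32 (SE; limma adjusted p = 0.999). It reached the minimum mean only through its overexpression values, which favoured a higher direction.

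Potato inhibitor I had the lowest class sum of the 4. Its main model, Nitab4.5_0003154g0030, was at 113, 213 and 565 in wild-type replicates 1, 2 and 3 and at 74.8, 127 and 183 in overexpression replicates 1, 2 and 3. Wild-type replicates 2 and 3 lay above all overexpression libraries and wild-type replicate 1 did not. The log2 difference was -0.98 ± 0.62 (SE; limma adjusted p = 0.999), and it was -0.36 without wild-type replicate 3.

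Less abundant potato inhibitor I models varied widely between libraries. Nitab4.5_0000302g0080 was at 4.15, 6.27 and 60.2 in wild-type replicates 1, 2 and 3 and was listed at 0 in overexpression replicate 1, with 5.78 and 16.3 in overexpression replicates 2 and 3. Nitab4.5_0000525g0290 was at 4.21, 14.5 and 17.2 in wild type and at 11.3, 2.40 and 0.94 under overexpression. In the first, overexpression replicate 1 was the lowest library, and in the second overexpression replicate 3 was. Their log2 differences were -1.43 ± 1.24 and -1.39 ± 0.76 (SE; limma adjusted p = 0.999 for both). Of the 3 members with the highest log2 difference, 2 were potato inhibitor I models, namely Nitab4.5_0013087g0020, at 0.31 ± 0.47 (SE), and Nitab4.5_0006346g0020, at 0.13 ± 0.63 (SE; limma adjusted p = 0.999 for both). The latter was listed at 0 in wild-type replicate 1 and was at 5.48 in wild-type replicate 3. Nitab4.5_0013087g0020 averaged 0.95 in wild type and 1.48 under overexpression. It reached the minimum mean only through its overexpression values, which favoured a higher direction.

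**Figure D2:**
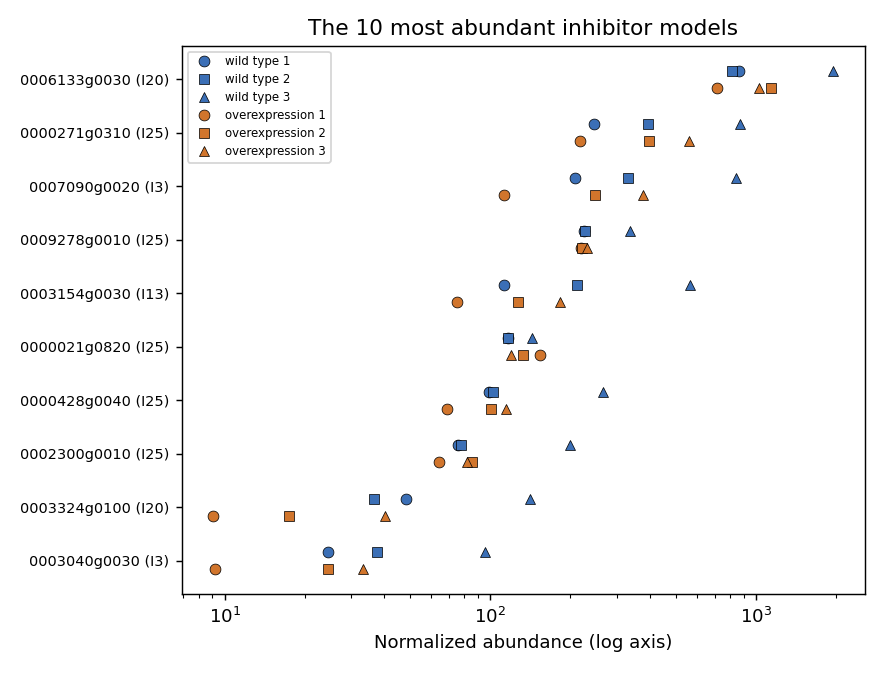
Normalized abundance (log axis) of the 10 most abundant inhibitor models, labelled by identifier without the prefix Nitab4.5_ and by family. Blue symbols are wild-type and orange symbols overexpression libraries. The cystatins 0009278g0010 and 0000021g0820 are tightly grouped, whereas the main Kunitz and potato inhibitor I models spread over 7.50 and 7.54 times.

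No inhibitor model passed the test for a difference between the plant materials. None of the 26 tested members was called with limma at an adjusted p below 0.05, where 1 of 17962 tested models was called (0.00557%), and the adjusted p of every member was 0.999. At an unadjusted p below 0.05 there were 2 members, both lower under overexpression and both potato inhibitor II models, against 1.35% of all tested models in that direction. One of them, Nitab4.5_0014015g0010, averaged 1.54 in wild type and 0.46 under overexpression. It passed the minimum mean of 1 only through its wild-type values, which favoured a lower direction, so the count is not read as an excess. Of the 26, 19 had a lower and 7 a higher fitted mean under overexpression (73.1% lower, against 51.7% of all tested models). The minimum mean also favoured the direction of some other members in this count. Nitab4.5_0000754g0170, counted as lower, averaged 1.59 in wild type and 0.51 under overexpression. Nitab4.5_0000339g0150 (0.96 and 1.31) and Nitab4.5_0013087g0020 (0.95 and 1.48) were counted as higher. The median log2 difference of the 26 was -0.36, against -0.01 over all tested models. Much of this lean depended on 1 library. Without wild-type replicate 3, 14 of 24 members were lower and the median was -0.04. When overexpression replicate 1 was left out, 19 of 28 were lower and the median was -0.25. Over all single libraries left out the median ran from -0.54 to -0.04.

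The intervals were wide. The 95% confidence intervals of the log2 difference had half-widths from 0.60 to 2.92, with a median of 1.11. A fall of 1 log2 unit lay inside the interval of 18 members and a rise of 1 log2 unit inside that of 8, so differences of that size in those members lie within the error.

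**Figure D3:**
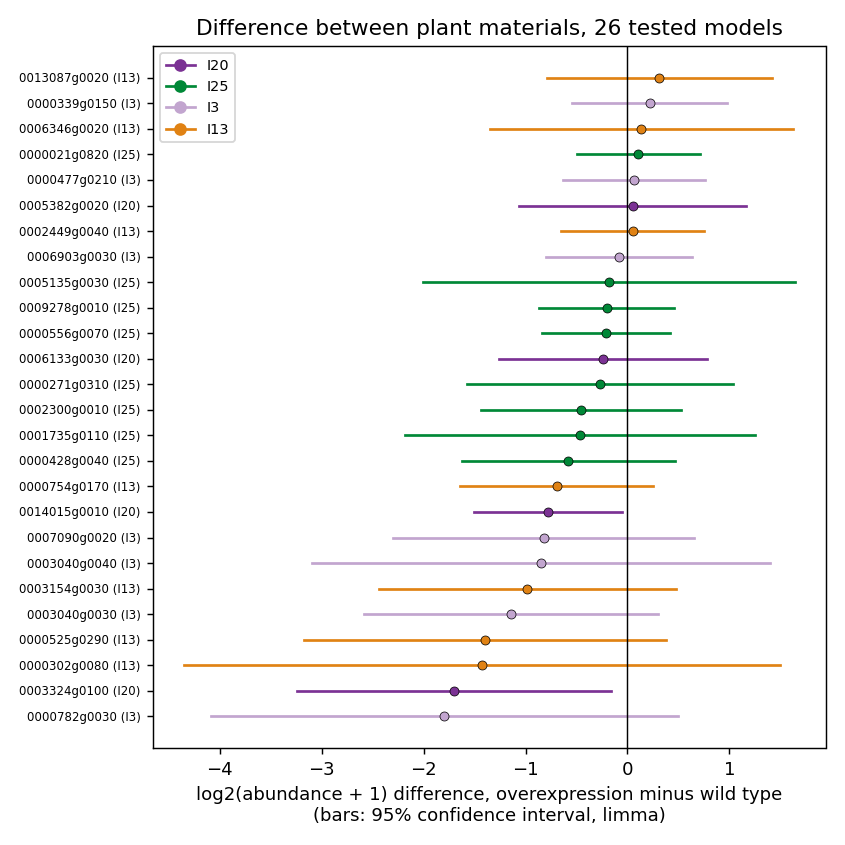
Log2 difference (overexpression minus wild type, log2(abundance + 1) scale) of the 26 tested inhibitor models with 95% confidence intervals from limma, coloured by family. Of the 26 points, 19 are below 0, and 2 intervals, both of potato inhibitor II models, exclude 0 before adjustment.

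Summed over all 81 members, inhibitor abundance was 2099, 2437 and 5671 in wild-type replicates 1, 2 and 3 and 1723, 2564 and 2871 in overexpression replicates 1, 2 and 3. The group means were 3402 ± 1972 and 2386 ± 594 (SD, n = 3 each), and the groups overlapped. The ratio of overexpression to wild type was 0.701, and without wild-type replicate 3 it was 1.05. The class ratios were 0.434 for potato inhibitor I, 0.526 for Kunitz inhibitors, 0.763 for potato inhibitor II and 0.793 for cystatins. Without wild-type replicate 3 they were 0.81, 0.903, 1.11 and 1.09, so the last 2 changed direction. The potato inhibitor II ratio was 0.304 when its most abundant model was left out. As shares of the summed abundance, the inhibitors made up 0.665 ± 0.292% in the wild-type and 0.527 ± 0.149% in the overexpression libraries (SD, n = 3 each).

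Libraries also differed within each group. Of the 26 tested members, 18 (69.2%) were highest in wild-type replicate 3, against 28.9% of all tested models. In overexpression replicate 1, 13 members (50.0%) were lowest, against 19.2% of all tested models. Wild-type replicate 3 was above wild-type replicate 1 in 23 members (88.5%, against 52.2% of all tested models), with a median log2 gap of 1.29 against 0.05. Overexpression replicate 3 was above overexpression replicate 1 in 17 members (65.4%, against 41.8%), with a median log2 gap of 0.34 against -0.17. Both gaps exceeded 1 log2 unit in 8 members (30.8%, against 5.94%). They were 1 potato inhibitor II, 1 cystatin, 2 potato inhibitor I and 4 Kunitz models.

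By class, the sum in wild-type replicate 3 was 5.31 times that in wild-type replicate 1 for potato inhibitor I, 4.09 times for Kunitz inhibitors, 2.31 times for cystatins and 2.30 times for potato inhibitor II. In the overexpression libraries, replicate 3 was at 2.26, 3.42, 1.46 and 1.48 times replicate 1 for the same classes. Kunitz inhibitors made up 7.96% of the inhibitor sum in overexpression replicate 1 and 18.5% in wild-type replicate 3, and cystatins 44.6% and 32.8%. Some members did not follow. The cystatins Nitab4.5_0001735g0110 and Nitab4.5_0005135g0030 were at 23.4 and 13.2 in overexpression replicate 1 and at 2.43 and 2.87 in overexpression replicate 3. The potato inhibitor I model Nitab4.5_0000525g0290 was at 11.3 and 0.94 in these libraries. Some Kunitz and potato inhibitor II models were also lower in overexpression replicate 3 than in replicate 1, by smaller gaps.

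**Figure D4:**
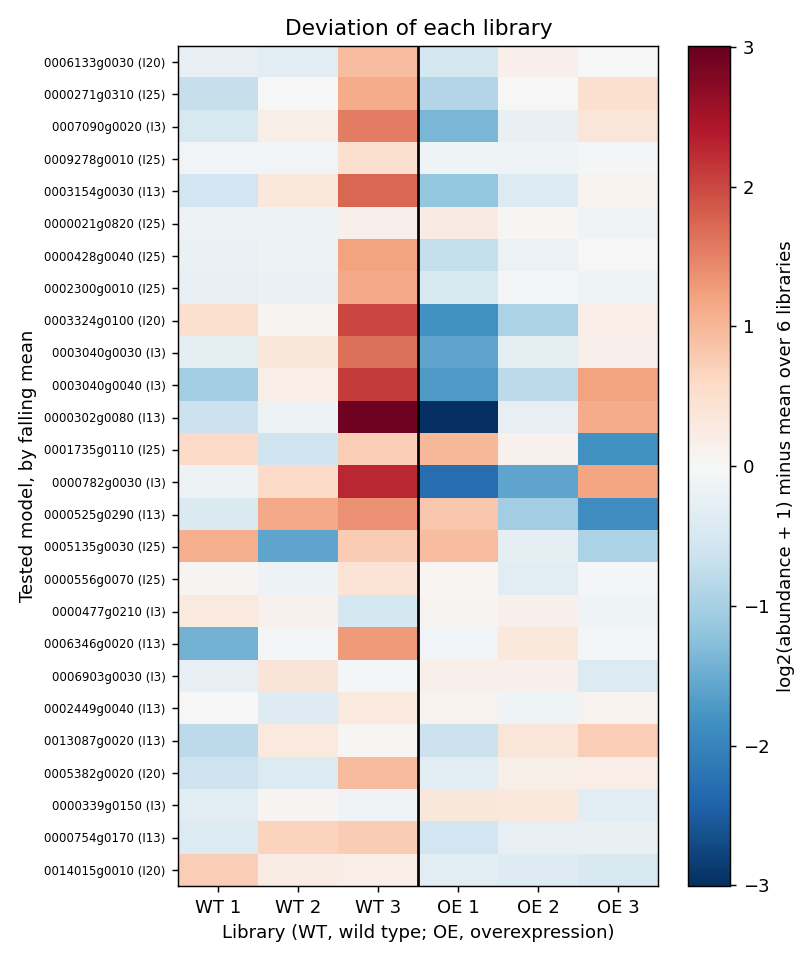
Deviation of each library (columns) from the mean over the 6 libraries on the log2(abundance + 1) scale, for the 26 tested inhibitor models (rows, by falling mean). Red is above and blue below the model's mean. Wild-type replicate 3 is red in most rows and is the highest library of 18, and overexpression replicate 1 is the lowest of 13.

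Genes that regulate the inhibitors or are their targets were compared by lists of descriptions. Over all 17962 tested models, 8684 were higher and 9278 (51.7%) lower under overexpression, and 1 was called. TIFY proteins include the JAZ repressors, which hold back jasmonate-responsive genes and are themselves induced by jasmonate. Of 18 tested TIFY models, 13 were lower and 5 higher under overexpression, 0 passed the test, and the median log2 difference was -0.48, which was -0.13 without wild-type replicate 3. It was -0.21 when overexpression replicate 1 was left out, and -0.79 when wild-type replicate 1 was. The most abundant, Nitab4.5_0000343g0360, was at 180.4, 193 and 600 in wild-type replicates 1, 2 and 3 and at 83.2, 166 and 202 in overexpression replicates 1, 2 and 3. Wild-type replicate 3 was highest in 10 of the 18 TIFY models and overexpression replicate 1 lowest in 9, against 18 and 13 of the 26 inhibitors. The TIFY model with the smallest p, Nitab4.5_0000201g0130, was at 38.7, 38.6 and 57.6 in wild type and at 10.9, 26.2 and 18.3 under overexpression, without overlap (limma adjusted p = 0.999).

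Enzymes of jasmonate synthesis shared the order of libraries only in part. They made up 0.030%, 0.088% and 0.070% of the summed abundance in wild-type replicates 1, 2 and 3. The shares were 0.034%, 0.043% and 0.044% in overexpression replicates 1, 2 and 3. Wild-type replicate 2 was thus the highest library and wild-type replicate 1 the lowest. Of 7 tested models, 4 were lower and 3 higher (51.7% lower over all tested models), with 0 called. The median log2 difference was -0.06, which ran from -0.29 to 0.08 over single libraries left out. An allene oxide cyclase, Nitab4.5_0004118g0110, which makes a precursor of jasmonate, was at 77.7, 187 and 187 in wild-type replicates 1, 2 and 3 and at 76.0, 76.6 and 80.8 in overexpression replicates 1, 2 and 3 (log2 difference -0.84 ± 0.39, SE; limma adjusted p = 0.999). Its wild-type replicate 1 was level with the overexpression libraries. A further allene oxide cyclase, Nitab4.5_0007287g0040, was at 48.7, 187 and 203 in wild type and at 74.2, 108 and 101.4 under overexpression (limma adjusted p = 0.999). Nitab4.5_0004118g0110 averaged 150.5 in wild type and 77.8 under overexpression, and Nitab4.5_0007287g0040 averaged 146 and 94.6. The whole list summed to 311 ± 149 and 185 ± 19.0 (SD, n = 3 each), so its shares rest mostly on these allene oxide cyclases.

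Papain-like cysteine proteases, the enzymes that cystatins block, had mostly higher fitted means under overexpression. Of 23 tested models, 17 were higher and 6 lower under overexpression, against 8684 higher and 9278 lower of all 17962 tested models. With 0 called (1 over all tested models), the median log2 difference was 0.18. That median was 0.076 without wild-type replicate 3. It was 0.097 when overexpression replicate 1 was left out, and 0.31 when wild-type replicate 1 was. They made up 0.312%, 0.263% and 0.16% of the summed abundance in wild-type replicates 1, 2 and 3 and 0.388%, 0.323% and 0.234% in overexpression replicates 1, 2 and 3. The library with the highest inhibitor share was thus the lowest for these proteases, and the reverse. The most abundant, Nitab4.5_0001840g0080, was at 608, 516 and 394 in wild type and at 672, 618 and 453 under overexpression, and Nitab4.5_0000510g0040 was at 21.0, 12.1 and 3.98 and at 89.8, 25.2 and 21.3 (limma adjusted p = 0.999 for both).

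Other protease families gave no call either, where 1 of all 17962 tested models was called. Over all tested models, 8684 were higher and 9278 lower under overexpression. Subtilisin-type proteases, which some serine protease inhibitors block, had 31 of 38 tested models higher, with a median log2 difference of 0.35, which was 0.12 without wild-type replicate 3. Their most abundant model, Nitab4.5_0000303g0140, was level, averaging 317 ± 71.9 in the wild-type and 319 ± 39.3 in the overexpression libraries (SD, n = 3 each). Nitab4.5_0012494g0040, with the smallest p of that list, was at 3.22, 2.97 and 1.69 in wild type and at 6.24, 7.94 and 4.36 under overexpression. The models with an I9 propeptide had 24 of 26 higher (median 0.46, and 0.20 without wild-type replicate 3), and all 26 are also in the subtilisin-type list. Serine carboxypeptidases had 8 of 9 lower (median -0.30, and -0.07 without overexpression replicate 3), among them Nitab4.5_0002796g0050, at 9.03, 3.84 and 7.61 in wild type and at 1.68, 3.55 and 0.48 under overexpression, while the most abundant, Nitab4.5_0001244g0030, was at 155 and 153 on average. Legumain-type proteases had 3 of 4 higher (median 0.17, and -0.027 without wild-type replicate 3), with Nitab4.5_0015763g0010 the most abundant, at a mean of 13.1, and Nitab4.5_0000359g0110 that of smallest p, at 1.17. All of these had a limma adjusted p of 0.999.

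A list of enzyme families that include defences against chewing insects had only higher fitted means under overexpression. It was matched on descriptions of polyphenol oxidase, tyrosinase, threonine dehydratase or deaminase, arginase and leucine aminopeptidase. Of its tested models 12 of 12 were higher, against 8684 of all 17962 tested models. With 0 called (1 over all tested models), the median log2 difference was 0.31. The list also took in threonine synthase-like descriptions, and the descriptions do not show which models act in defence. Over single libraries left out the median ran from -0.01, without wild-type replicate 3, to 0.64. A threonine dehydratase described as biosynthetic, Nitab4.5_0000132g0410, was at 138, 211 and 154 in wild type and at 172, 182 and 198 under overexpression. A polyphenol oxidase, Nitab4.5_0000907g0080, was at 1.34, 2.84 and 1.62 and at 7.39, 8.36 and 1.87 (limma adjusted p = 0.999 for both).

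Genes of photosynthesis had the opposite extremes to the inhibitors among the libraries, while the libraries between did not reverse in full. The inhibitor share was 0.456%, 0.540% and 0.998% in wild-type replicates 1, 2 and 3 and 0.362%, 0.568% and 0.652% in overexpression replicates 1, 2 and 3. In the same order of libraries, chlorophyll a/b-binding proteins were at 1.54%, 0.796% and 0.295% and at 1.92%, 1.13% and 0.447%. The library with the most inhibitor transcript had the least of these antenna transcripts, and the library with the least inhibitor transcript had the most. Overexpression replicate 2 was above wild-type replicate 2 for both. All 62 tested chlorophyll a/b-binding models and all 9 tested Rubisco small chain models were lower in wild-type replicate 3 than in replicate 1, and lower in overexpression replicate 3 than in replicate 1. TIFY shares were 0.121%, 0.138% and 0.251% in the wild-type and 0.0764%, 0.122% and 0.147% in the overexpression libraries, close to the order of the inhibitors. Terpene synthases, taken as trichome markers, were at 0.069%, 0.136% and 0.080% and at 0.0784%, 0.113% and 0.239%. They rose from overexpression replicate 1 to 3 as the inhibitors did, but wild-type replicate 2 was above wild-type replicate 3. Core histones were at 0.548%, 0.496% and 0.519% and at 0.855%, 0.612% and 0.606%, without the order of the inhibitors. Every overexpression library was above every wild-type library for histones. Of 78 tested histone models 63 were higher under overexpression, with 0 called (all tested models: 8684 of 17962 higher, 1 called). The part of these marker lists in the inhibitor values was not tested, and in leaf RNA a change in the number of cells of a type cannot be told apart from a change per cell.

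**Figure D5:**
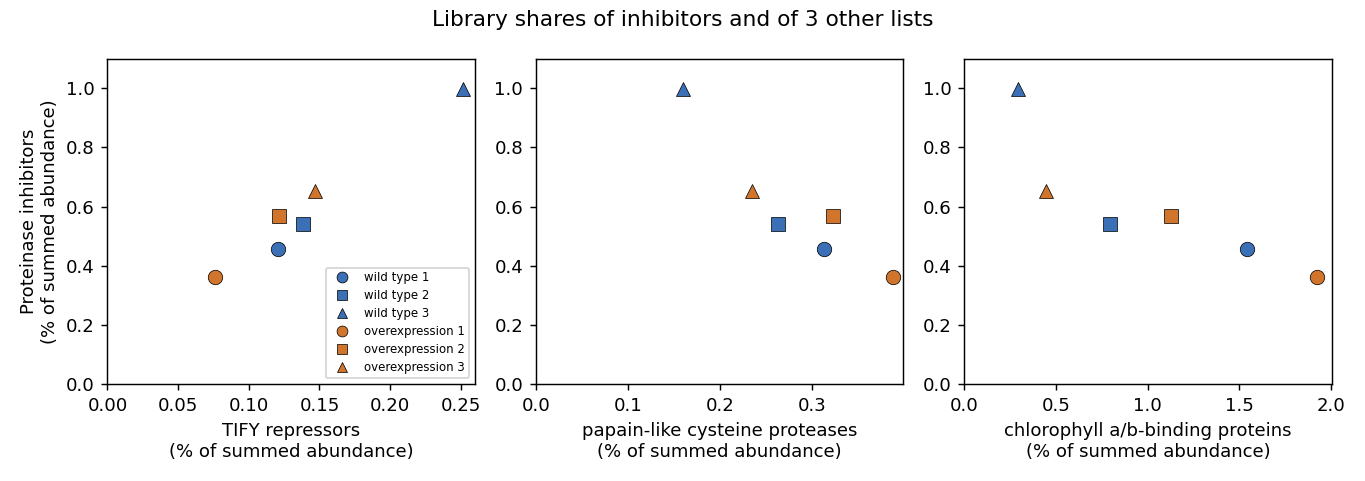
Share of the summed abundance taken by proteinase inhibitors (vertical axis, %) against the share taken by TIFY proteins, papain-like cysteine proteases and chlorophyll a/b-binding proteins (horizontal axes, %), 1 point per library. Wild-type replicate 3, with an inhibitor share of 0.998%, is highest for TIFY proteins and lowest for the other lists, and overexpression replicate 1, at 0.362%, is the reverse.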

How the data were processed

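Total RNA was made into paired-end TruSeq libraries, per the labels' protocols. Alignment and quantification tools named in the submitters' processing notes are HISAT2, StringTie and RSEM, at versions, settings and a genome build not given in the sources used here. A normalized signal (abundance) per gene model and library was deposited by the authors in 1 table for each plant material, and their group means were not used. Nothing says that the 2 tables were normalized together, so levels set across them assume comparable values, which 3 other scalings probed. Read depth is unknown.

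Values were transformed to log2(value + 1). All 17962 models averaging at least 1 entered 1 limma fit (version 3.58.1, R 4.3.3; group as the only term, eBayes trend and robust, 4 residual degrees of freedom), with Benjamini-Hochberg adjustment over all of them and a threshold of 0.05. The fit was tested on simulated data. Members, lists and tests were chosen with earlier results of these data known, so list counts and medians carry no test. The pattern for pepsin-type aspartic proteases matched 0 models.

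Named were the 10 most abundant tested members, the 5 with the smallest p, the 3 highest and 3 lowest log2 differences, the top member of each class and, for each other list, the most abundant model and that with the smallest p. A few others were named after their values were seen. The alternatives were another pseudocount, 2 other filters, 3 scalings, a replicate block, a plainer empirical Bayes fit, leaving out each library and, added after seeing the data, leaving out both libraries numbered 3.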

Additional observations from a re-analysis of the deposited data

How the results depend on the processing

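No inhibitor member was called under any alternative (smallest limma adjusted p 0.705, with the replicate block), and the direction of the median log2 difference was negative in each. The 1 call over all models became 0 with a pseudocount of 0.1, with no filter, with each of the 3 scalings, with the replicate block, without any single library (0 to 0) and without both libraries numbered 3. Deviations from the group means correlated at 0.56, -0.11 and 0.42 between same-numbered libraries 1, 2 and 3 over 17962 models. Wild-type replicate 1 and overexpression replicate 3 correlated at -0.58, and wild-type replicate 3 and overexpression replicate 1 at -0.44. Deviations from a group mean cancel out within the group, so these negative values are not independent of the positive ones. Numbers 1 and 3 thus differed in a like way in both groups, while number 2 did not follow. The main fit did not take the numbers as pairs, and the replicate block did. The median log2 difference of the members was -0.16 with equal totals, -0.54 to -0.04 without single libraries and -0.09 without both libraries numbered 3, and -0.10 over 56 members with no filter. For TIFY proteins the median was -0.065 with no filter and ran from -0.79 to -0.13 without single libraries. For serine carboxypeptidases it was 0.029 without both libraries numbered 3. Over single libraries left out, the medians of legumain-type proteases (-0.027 without wild-type replicate 3, and -0.0023 when overexpression replicate 1 was left out) and of jasmonate synthesis (-0.29 to 0.08) also changed sign. The potato inhibitor II ratio was 0.304 without its most abundant model. Signs turned, with no call, for Nitab4.5_0006133g0030 (0.17 without wild-type replicate 3, range -0.46 to 0.17, and 0.11 without both libraries numbered 3), Nitab4.5_0000271g0310 (-0.68 to 0.23 over single libraries left out), Nitab4.5_0002300g0010 (-0.69 to 0.0022), Nitab4.5_0006346g0020 (-0.54 to 0.81) and Nitab4.5_0013087g0020 (-0.0048 to 0.71). The cause of these turns and of the dependence on wild-type replicate 3 was not tested. Precision was limited by 3 libraries a group, and exact zeros may be failed estimates.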
